A study of Mus musculus with 8 samples.

Results

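The voltage-gated and potassium ion channels measured in this series were the array rows annotated with 1 gene symbol that begins as a potassium channel gene (Kcn followed by a letter), a voltage-gated sodium channel gene (Scn with a number and a or b) or a voltage-gated calcium channel gene (Cacna, Cacnb or Cacng). This rule found 146 of the 35557 rows, for 127 genes. Of these rows, 95 stood for 92 potassium channel genes, 25 for 11 sodium channel genes and 26 for 24 calcium channel genes. A row is a transcript cluster, which combines the probes along a gene into 1 log2 value. In all, 120 genes had 1 row, 6 had 2 rows, and Scn2a was split over 14 rows. Potassium, sodium and calcium counts include auxiliary subunits, and the rule also took in 3 antisense or opposite-strand RNAs (Kcnd3os, Kcnmb4os1 and Kcnmb4os2).

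The study hybridised RNA from the olfactory mucosa of 8 mice at postnatal day 1, 1 array per mouse, on a mixed 129 x C57BL/6J background. The 4 Emx2 knockout mice were 123Cre:Emx2(fl/fl), and in them Cre, which the 123 promoter switches on in immature olfactory sensory neurons (OSNs), can delete both floxed alleles of the homeobox gene Emx2. The 4 controls were littermates in which at most 1 allele can be deleted: controls 1 and 4 were 123Cre:Emx2(fl/+), with Cre, and controls 2 and 3 were Emx2(fl/fl), without Cre. All mice therefore carried at least 1 floxed allele, Emx2 was intact before the immature OSN stage, and per the study's methods Cre does not reach every OSN. The labels give neither litters nor sex, and the p-values therefore reflect only how these 8 samples spread.

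Voltage-gated channels open when the membrane depolarises. Sodium channels carry the upstroke of the action potential, calcium channels admit the calcium that triggers transmitter release, and potassium channels repolarise the cell and hold its resting potential. Each channel is built of pore-forming subunits, which conduct the ion, and auxiliary subunits, which change its gating or its delivery to the membrane. In OSNs the odour-gated current is carried by cyclic nucleotide-gated and calcium-activated chloride channels, and the voltage-gated channels turn it into spikes that travel to the olfactory bulb.

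Emx2 itself measured 9.80, 9.86, 10.01 and 9.93 in knockout mucosae, against 10.80, 10.86, 11.00 and 10.72 in control mucosae. It fell by 0.94 on the log2 scale (SE 0.082, limma adjusted p = 0.0014), to 52.0% of the control level, and the groups did not overlap. The tissue label matched its markers: Omp, the marker of mature OSNs, averaged 12.88 ± 0.061 in knockouts and 12.94 ± 0.091 in controls (SD, n = 4 each), and Gap43, the marker of immature OSNs, 11.34 ± 0.068 and 11.56 ± 0.070. The Gap43 groups did not overlap, with every knockout below every control (difference -0.23, limma adjusted p = 0.564). Lhx2, the partner transcription factor of the study, averaged 12.51 in knockouts and 12.52 in controls. The mean of 15 mature OSN markers ranged over 11.22 to 11.41 in knockouts, against 11.44 to 11.51 in controls. Knockout 2 stood apart, with a mean correlation of 0.979 with the other arrays, against 0.988 to 0.991 for the remaining 7, and differences that moved most without it are given both ways. In bulk mucosa, fewer cells of a type and less RNA per cell cannot be told apart.

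No channel row passed the test between knockouts and controls. At an adjusted p under 0.05, 0 of the 146 channel rows were called by limma, where 84 of all 23410 rows with a gene symbol were called (0.359%), 0.35% lower and 0.00854% higher. At an unadjusted p under 0.05 there were 13 channel rows (8.9%, beside 6.1% of all rows). The methods' t-test on the same values, unadjusted, found 15: 4 lower (2.74%, beside 3.55% of all rows) and 11 higher (7.53%, beside 3.53%). Of the 13, 4 were lower in knockouts, a share of 2.74% beside 3.06% of all rows, and 9 were higher, 6.16% beside 3.04%. The median difference over the channel rows was -0.03 and that over all rows 0.00. Groups did not overlap for 2 lower channel rows (1.37% beside 2.54% of all rows) and 4 higher ones (2.74% beside 1.98%). The bounds were narrow for most channels: the 95% interval of the difference stayed within 1 log2 unit on either side for all 146 rows and within 0.5 for 109 of them (74.7%, beside 81.3% of all rows). These are levels of messenger RNA in whole mucosa, and 31 of the 146 rows lay in the dimmest 30% of rows, with a mean at or under 6.86.

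**Figure D1:**
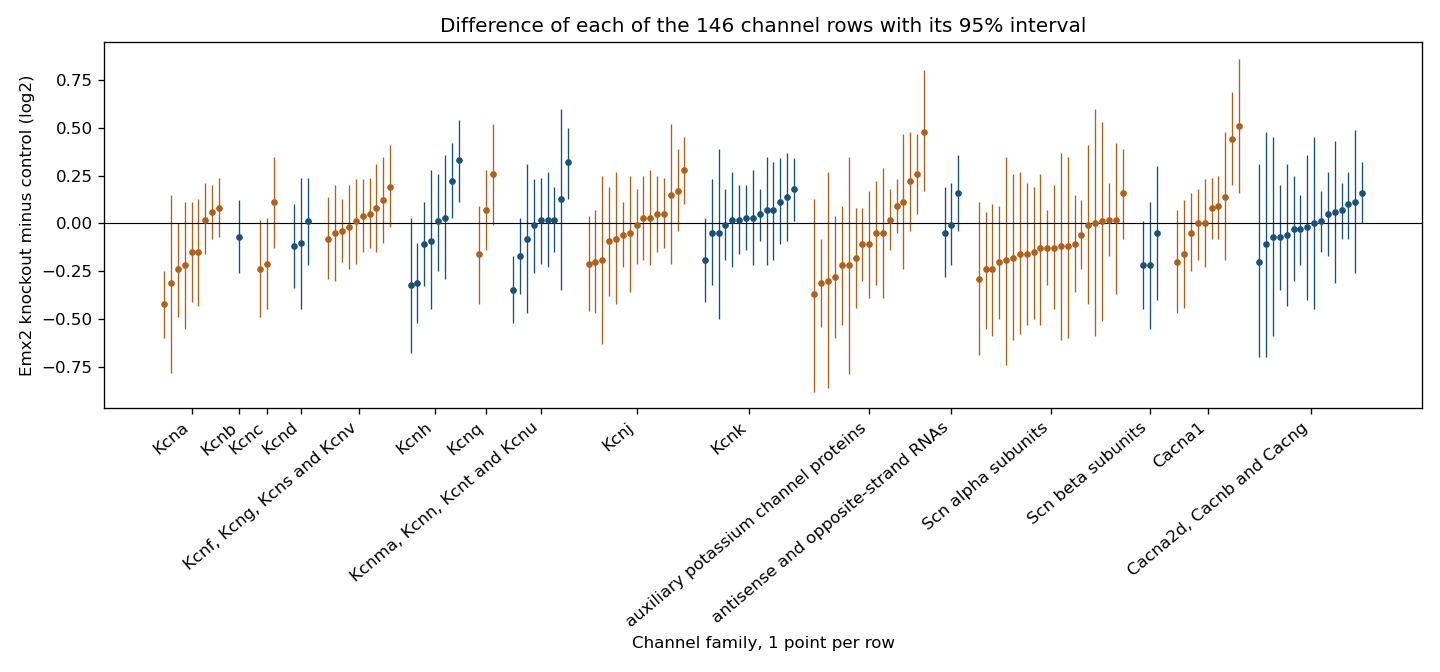
Difference between Emx2 knockout and control (log2, vertical axis) for each of the 146 channel rows, grouped by channel family along the horizontal axis, with colours alternating between families. Points are limma estimates and bars their 95% intervals (n = 4 arrays per group). Only Cacna1e lies more than 0.5 from 0, and no interval reaches 1.

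The promoters of 4 channel genes at the head of the list are shown for what lies upstream of their start sites: Kcna6 and Kcnn3 had the lowest p-values among lower rows, and Cacna1e and Kcnmb1 the largest positive differences. Each is the 250 bases before the RefSeq start (GRCm38.p6), 5′ to 3′ on the gene's own strand, with CG pairs in capitals. Kcna6 is at chr6:126740675-126740924 and Cacna1e at chr1:154725921-154726170, both on the minus strand, and Kcnn3 is at chr3:89519914-89520163 and Kcnmb1 at chr11:33962763-33963012, both on the plus strand.
Kcna6: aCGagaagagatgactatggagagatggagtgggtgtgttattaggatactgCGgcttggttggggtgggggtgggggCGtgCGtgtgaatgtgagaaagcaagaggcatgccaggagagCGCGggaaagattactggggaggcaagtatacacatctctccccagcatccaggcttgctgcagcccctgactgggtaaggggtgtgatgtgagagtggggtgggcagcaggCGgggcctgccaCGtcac
Kcnn3: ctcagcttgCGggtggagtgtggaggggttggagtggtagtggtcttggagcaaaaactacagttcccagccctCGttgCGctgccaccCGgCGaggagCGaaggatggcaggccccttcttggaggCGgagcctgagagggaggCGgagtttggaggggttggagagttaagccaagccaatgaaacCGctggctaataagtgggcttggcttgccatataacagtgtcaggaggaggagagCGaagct
Cacna1e: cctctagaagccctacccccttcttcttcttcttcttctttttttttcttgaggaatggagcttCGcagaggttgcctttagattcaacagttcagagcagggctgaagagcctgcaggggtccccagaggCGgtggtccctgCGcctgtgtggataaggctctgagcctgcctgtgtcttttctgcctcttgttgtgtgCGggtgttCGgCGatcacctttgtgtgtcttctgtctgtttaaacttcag
Kcnmb1: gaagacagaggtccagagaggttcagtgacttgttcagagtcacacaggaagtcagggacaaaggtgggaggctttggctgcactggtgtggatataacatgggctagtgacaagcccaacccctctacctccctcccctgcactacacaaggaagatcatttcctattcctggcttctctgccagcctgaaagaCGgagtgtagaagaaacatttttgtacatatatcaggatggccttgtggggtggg
They hold 8, 10, 6 and 1 CG pairs in the order printed. Over 132 promoters of 97 channel genes in the table the median was 8 CG pairs, against 11 over 19116 promoters of all genes with a 1-symbol row, although the median GC content was 58.0% in channel promoters and 56.8% in all. The homeodomain core TAATTA, which reads the same on either strand and was searched from 250 bases before to 50 after the start, was in 0 of the 132 channel promoters and in 4.25% of all. This describes the letters of these windows only.

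Among pore-forming potassium channels, the Kcna (Shaker) genes, delayed rectifiers that set spike threshold and shape, held the row with the lowest p. Kcna6 measured 8.42, 8.63, 8.55 and 8.40 in knockouts, against 8.95, 8.99, 8.94 and 8.83 in controls. All 4 knockouts lay below all 4 controls. The difference was -0.42 (SE 0.077, 95% interval -0.60 to -0.25), or 74.5% of the control level, with a limma adjusted p of 0.0892. Without knockout 2 it was -0.47 with an adjusted p of 0.0306, and with arrays weighted by their quality -0.47 with 0.00604, so the call depends on that array. Over all alternatives the adjusted p ranged between 0.00604 and 0.998, and the sign held in each. The 2 control genotypes gave like Kcna6 values, with a difference between them of -0.07 (SE 0.11).

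Kcna6 lies next to Kcna1 and Kcna5 on mouse chromosome 6, with no protein-coding gene between them. Kcna5 averaged 8.44 ± 0.10 in knockouts and 8.69 ± 0.20 in controls, a difference of -0.24 (95% interval -0.49 to 0.00). Kcna1 measured 8.60, 8.15, 8.61 and 8.61 in knockouts, against 8.54, 8.56, 8.85 and 8.62 in controls, and knockout 2 alone lay below the controls. The cluster on chromosome 3 included Kcna2, whose 2 rows differed by -0.22 and -0.31 with intervals that span 0, and by -0.10 and -0.12 without knockout 2. In all, 6 of 9 Kcna rows were below 0, with a median of -0.15, and none was called. The count was 6 under both centring alternatives, under quantile normalization and without knockout 2, but the median moved to -0.01 with mature OSN centring and to -0.10 without knockout 2. Cntnap2, the adhesion protein that anchors Kcna channels on axons, measured 8.05, 8.39, 8.35 and 8.09 in knockouts, against 8.52, 8.85, 8.44 and 8.44 in controls, and its groups did not overlap (difference -0.35, adjusted p = 0.713).

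**Figure D2:**
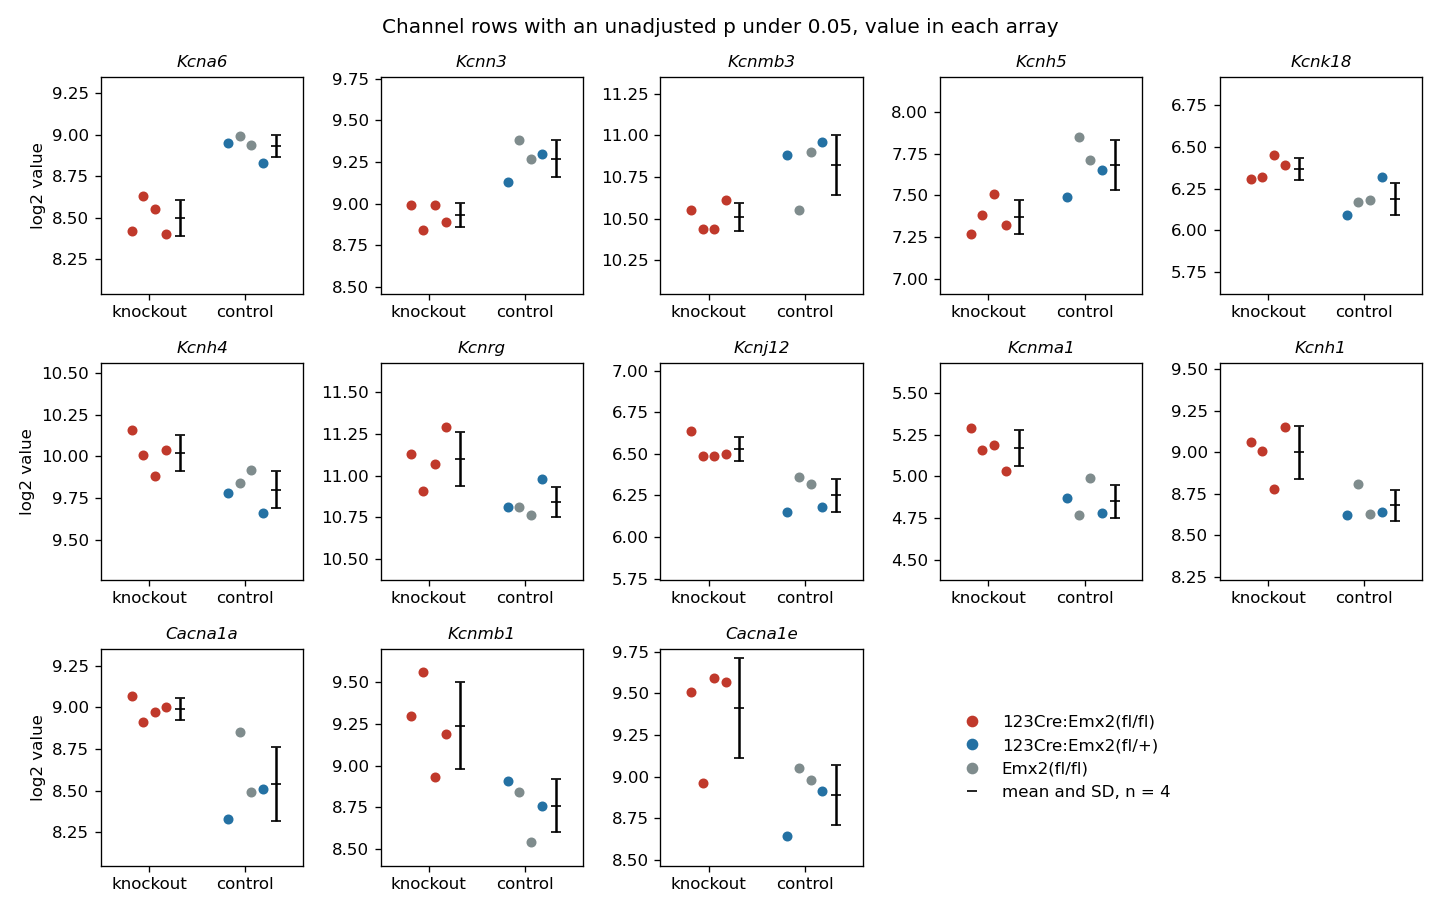
Log2 value (vertical axis) of the 13 channel rows with an unadjusted p under 0.05 in each of the 4 Emx2 knockout arrays (left) and 4 control arrays (right), ordered by their difference. Colours give the genotype, bars the mean and SD, and each panel spans 1.3 log2 units. Kcna6 and Kcnn3 lie lower in every knockout than in any control, Cacna1a, Kcnma1, Kcnj12 and Kcnmb1 higher, and the other 7 overlap.

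The remaining delayed rectifiers and A-type channels gave small differences with no calls. The Kcnc genes, whose channels open and close fast enough for high firing rates, were represented by Kcnc1 at -0.24, Kcnc4 at -0.21 and Kcnc2 at 0.11. Kcnc1 measured 7.27, 7.26, 7.18 and 7.15 in knockouts, against 7.31, 7.66, 7.64 and 7.19 in controls: the 2 controls without Cre were high and the 2 with Cre were near the knockouts. For the Kcnd genes, pores of the rapidly inactivating A-type current, Kcnd2 was at -0.12 and Kcnd3 at -0.10, and for Kcnb2 the difference was -0.07. The silent subunits Kcnf, Kcng, Kcns and Kcnv, which conduct only with Kcnb partners, ran from -0.08 to 0.19 over 10 rows, with Kcnv2 at the upper end (6.80 ± 0.17 in knockouts and 6.61 ± 0.074 in controls). Kcnq1, an epithelial potassium channel pore, was at 0.26 (95% interval -0.01 to 0.52, and 0.16 without knockout 2) and Kcnq3, a pore of the M-current that dampens repeated firing, at -0.16.

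The Kcnh genes (eag, erg and elk channels) included 3 of the 13 rows and went both ways. Kcnh5 measured 7.27, 7.38, 7.51 and 7.32 in knockouts, against 7.49, 7.85, 7.71 and 7.65 in controls, a difference of -0.31 (SE 0.094, adjusted p = 0.564). Its eag relative Kcnh1 measured 9.06, 9.01, 8.78 and 9.15 in knockouts, against 8.62, 8.81, 8.63 and 8.64 in controls, a difference of 0.33 (SE 0.094, adjusted p = 0.501). In each of these rows the groups overlapped by 1 knockout and 1 control array. Kcnh4, of the elk branch, averaged 10.02 ± 0.11 in knockouts and 9.80 ± 0.11 in controls (0.22, adjusted p = 0.771), and Kcnh7, of the erg branch, 8.22 ± 0.32 and 8.54 ± 0.15 (-0.32, adjusted p = 0.843, and -0.17 without knockout 2). The signs of Kcnh1, Kcnh4 and Kcnh5 held under every alternative, and none was called under any.

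Among calcium- and sodium-activated potassium channels, Kcnn3 stood out by its separation. Kcnn3, a small-conductance channel opened by calcium through calmodulin, measured 8.99, 8.84, 8.99 and 8.89 in knockouts, against 9.13, 9.38, 9.27 and 9.30 in controls. The highest knockout was below the lowest control. The difference was -0.35 (SE 0.077, 95% interval -0.52 to -0.17), or 78.7% of the control level, with an adjusted p of 0.224 that ranged between 0.0666 and 0.998 over the alternatives. Its relatives Kcnn1 and Kcnn4 were at -0.17 and 0.13, the second at 0.01 without knockout 2. Kcnma1, the pore of the large-conductance BK channel, had 2 rows that disagreed: the brighter measured 10.88, 10.37, 11.06 and 11.14 in knockouts, against 10.88, 10.72, 10.99 and 11.17 in controls (-0.08), while the dimmer, among the dimmest 30% of rows, averaged 5.17 ± 0.11 in knockouts and 4.85 ± 0.10 in controls (0.32, adjusted p = 0.380). The brighter row overlapped widely and turned to 0.08 without knockout 2, so the data give no single direction for Kcnma1.

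Inward rectifiers (Kcnj) and tandem-pore channels (Kcnk), which set the resting potential, had medians close to 0. The 15 Kcnj rows had a median of -0.01 and the 14 Kcnk rows 0.03. Kcnj12, a strong inward rectifier best known from heart and skeletal muscle, measured 6.64, 6.49, 6.49 and 6.50 in knockouts, against 6.15, 6.36, 6.32 and 6.18 in controls (0.28, SE 0.076, adjusted p = 0.436). Its groups did not overlap, and the row was among the dimmest 30%. Beside it, 10 skeletal muscle markers had a mean of 7.38 to 7.51 in knockouts, against 7.23 to 7.42 in controls. All 10 differences were above 0 and 3 of the 10 rows were in the dimmest 30%. The part of muscle in the Kcnj12 values was not tested. Kcnk18, a background channel of sensory ganglia, was at 0.18 (adjusted p = 0.789) and equally dim. Kcnj10 and Kcnj16, which form the potassium-buffering channel of glia and epithelia, were at -0.21 and 0.17, and the intervals of both spanned 0.

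The auxiliary potassium channel proteins varied more. The BK auxiliary subunits had differences of both signs, and none was called. Kcnmb1 was above 0 and Kcnmb2, Kcnmb3 and Kcnmb4 below it, under centring and quantile alternatives alike. With mature OSN centring Kcnmb4 was at only -0.03. Kcnmb1, which raises the calcium sensitivity of BK channels in smooth muscle, measured 9.30, 9.56, 8.93 and 9.19 in knockouts, against 8.91, 8.84, 8.54 and 8.76 in controls. The lowest knockout was just above the highest control, and the difference was 0.48 (SE 0.14, 95% interval 0.17 to 0.80, adjusted p = 0.477). Markers of smooth muscle and pericytes had a mean of 9.66 to 10.24 in knockouts, against 9.96 to 10.16 in controls, with 6 of 7 differences below 0 and none of the 7 rows dim. Knockout 2 was the highest array for Kcnmb1 and for 6 of these 7 markers, and without it Kcnmb1 was at 0.38. The part of these cells in the Kcnmb1 values was not tested. Kcnmb3 measured 10.55, 10.44, 10.44 and 10.61 in knockouts, against 10.88, 10.55, 10.90 and 10.96 in controls (-0.31, SE 0.10, adjusted p = 0.660), and control 2 was the array that overlapped. Kcnmb2, which inactivates BK channels, and Kcnmb4, the neuronal form, were at -0.37 (95% interval -0.88 to 0.13) and -0.18, with Kcnmb2 at -0.17 without knockout 2.

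The Kcnip genes, calcium-binding subunits that carry Kcnd channels to the membrane, were below 0 in 4 of 4 cases, with a median of -0.22, and in 3 of 4 when arrays were centred on mature OSN markers. None passed the test. Kcnip1 measured 7.14, 7.43, 7.06 and 6.76 in knockouts, against 6.97, 8.11, 7.45 and 7.05 in controls, so its difference of -0.30 (SE 0.25) leaned on control 2. Against the 123Cre:Emx2(fl/+) controls alone it turned to 0.09. Kcnip1 is the neighbour of Kcnmb1 on chromosome 11, with no protein-coding gene between them, and the 2 differences had opposite signs. Kcnip3 and Kcnip4 were at -0.22 each, but Kcnip4 was at -0.01 without knockout 2, in which it measured 8.29, the lowest of the 8 arrays. Kcnab2, a cytoplasmic subunit of Kcna channels, measured 9.79, 10.36, 9.74 and 9.82 in knockouts, against 10.22, 10.32, 10.24 and 10.04 in controls: 3 knockouts lay below every control and knockout 2 above every one (-0.28, SE 0.14, adjusted p = 0.857). Kcnrg, a soluble protein that binds the assembly domain of voltage-gated potassium channels, averaged 11.10 ± 0.16 in knockouts and 10.84 ± 0.092 in controls (0.26, adjusted p = 0.728), and Kcne2, a single-span subunit of Kcnq1, was at 0.22.

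In the calcium channels the largest differences were in 2 of the 3 pores of the high-voltage presynaptic group. Cacna1e, the R-type pore, measured 9.51, 8.96, 9.59 and 9.57 in knockouts, against 8.64, 9.05, 8.98 and 8.91 in controls. Of the knockouts, 3 lay above every control and knockout 2 lay among the controls. The difference was 0.51 (SE 0.15, 95% interval 0.16 to 0.86), or 143% of the control level, with an adjusted p of 0.557. Without knockout 2 it was 0.66 (SE 0.10, adjusted p = 0.0311), and with array weights 0.65 (adjusted p = 0.0186). Cacna1a, the P/Q-type pore of fast transmitter release, measured 9.07, 8.91, 8.97 and 9.00 in knockouts, against 8.33, 8.85, 8.49 and 8.51 in controls, with no overlap. Its difference was 0.44 (SE 0.11, 95% interval 0.20 to 0.69), or 136% of the control level, with an adjusted p of 0.329, 0.220 without knockout 2 and 0.0311 with array weights. Cacna1b, the N-type pore, was at 0.00 (95% interval -0.19 to 0.18).

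The other calcium channel pores and all their auxiliary subunits differed by at most 0.20 in either direction with all arrays. Without knockout 2 Cacng7 was at -0.39 and the others at most 0.22 from 0. Cacna1c, the L-type pore of smooth and cardiac muscle, was at -0.20 (95% interval -0.47 to 0.07). Of 16 rows of Cacna2d, Cacnb and Cacng genes, 8 were below and 8 above 0, with a median of -0.01. Cacng1, the auxiliary subunit of the skeletal muscle channel, averaged 7.79 ± 0.045 in knockouts and 7.63 ± 0.10 in controls (0.16, adjusted p = 0.826), and Cacng7 averaged 9.56 ± 0.41 and 9.76 ± 0.33 (-0.20). Cacng2 and Cacng3, whose proteins also escort AMPA-type glutamate receptors, overlapped fully between the groups.

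For the sodium channels, which start the action potential, the size of the summary depended on 1 array. Scn9a, the main voltage-gated sodium channel of OSNs, had 2 rows at 0.01 and 0.00, and at 0.23 and 0.26 without knockout 2. The brighter measured 11.92, 11.25, 12.20 and 12.24 in knockouts, against 11.72, 11.61, 11.97 and 12.25 in controls, with a 95% interval of -0.51 to 0.53. Knockout 2 was the lowest of the 8 arrays. Over all 25 sodium channel rows, 20 were below 0 with a median of -0.13. Without knockout 2, 14 of 25 were below 0 with a median of -0.02, and when arrays were centred on mature OSN markers 11 of 25, as that centring moved the median of all rows to 0.146. With 1 row per gene, 8 of 11 sodium channel genes were below 0 with a median of -0.13, and 7 of 11 with -0.09 without knockout 2. The 3 beta (auxiliary) subunit genes among them were all below 0 in both. Of the 8 alpha (pore) subunit genes, 5 were below 0 with a median of -0.12, and 4 with -0.01 without knockout 2. None of the 25 rows had a p under 0.05 in the main comparison.

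The 14 rows of Scn2a, a sodium channel of unmyelinated axons, are probes of the same gene and not 14 measurements of independent genes. Their mean per array was 7.29, 6.96, 7.65 and 7.43 in knockouts, against 7.21, 7.66, 7.42 and 7.54 in controls. Of these rows 11 were lowest in knockout 2. The counts moved accordingly: 13 of the 14 were below 0 with all arrays and 7 without knockout 2. Scn8a, the sodium channel of nodes of Ranvier, measured 8.65, 8.19, 8.90 and 8.87 in knockouts, against 8.80, 8.81, 8.98 and 9.00 in controls (-0.24, SE 0.15), again with knockout 2 lowest. Scn3a, a channel of developing neurons, was at -0.29 (SE 0.18). Without knockout 2 the differences were -0.09 for Scn8a and -0.11 for Scn3a. The auxiliary subunits ran differently: Scn3b measured 11.54, 11.73, 11.33 and 11.45 in knockouts, against 11.68, 11.90, 11.69 and 11.65 in controls (-0.22, SE 0.10, adjusted p = 0.834), and here knockout 2 was the highest of the knockouts. Scn4b was at -0.22, and at -0.35 without knockout 2.

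**Figure D3:**
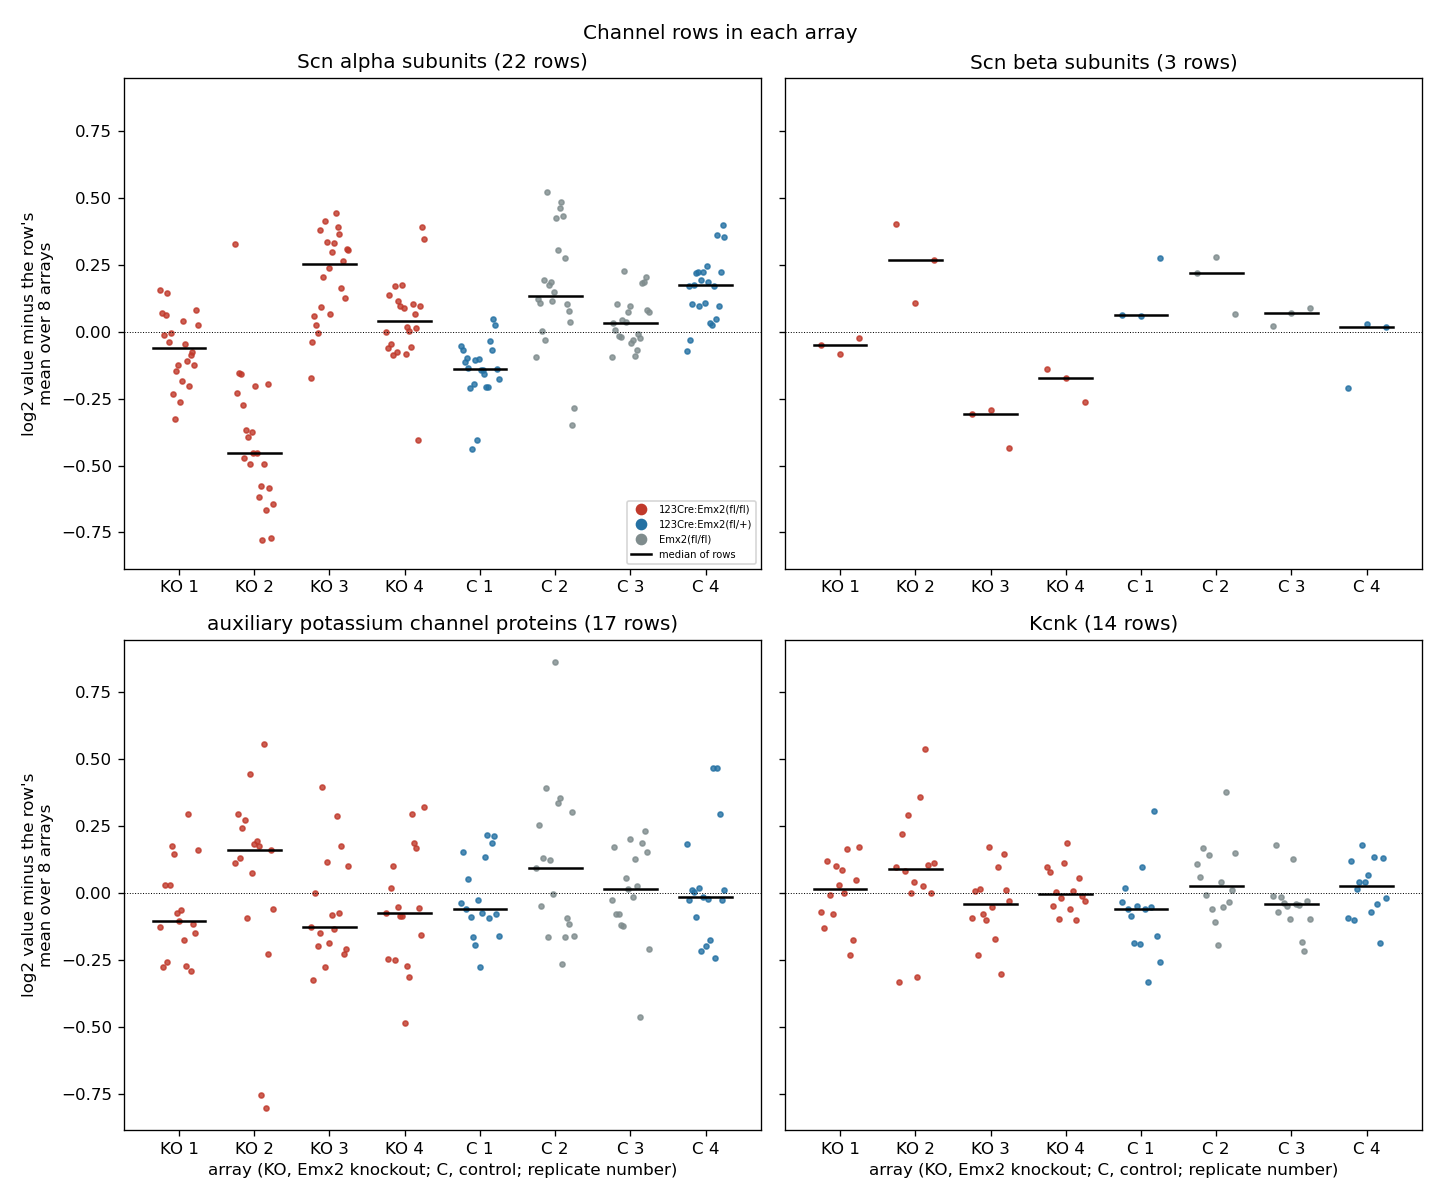
Log2 value minus the row's mean over 8 arrays (vertical axis) in each array (horizontal axis: KO, Emx2 knockout, left; C, control, right) for 4 channel families. Points are rows, coloured by genotype, and black lines their medians. In knockout 2 most Scn alpha rows lie below 0, while the 3 Scn beta rows lie above it.

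Knockout 2 differed from the other knockouts most in the sodium channels. Against the mean of the other 3, its Scn alpha rows had a median of -0.51 (range -1.03 to 0.33, 22 rows), its Scn beta rows 0.51 (0.30 to 0.56, 3 rows) and its auxiliary potassium channel proteins 0.34 (-0.86 to 0.58, 17 rows). Pore and auxiliary families did not separate in general: the calcium auxiliary rows had a median of 0.03 (16 rows), and the other pore and silent families lay between -0.19 and 0.20. Over all channel rows the median was 0.01, and over all 23410 rows 0.04. The deviation was also lower for longer genes: Spearman's rho between it and gene length was -0.42 over the 146 channel rows, -0.34 with 1 row per gene (127 genes) and -0.19 over 21695 rows of all kinds. The points come from the same arrays and rows of a gene share its length, so rho is a description. The same measure was -0.03 for knockout 1, 0.40 for knockout 3 and 0.31 for knockout 4, each against the other 3 knockouts, among which knockout 2 then counts. RNA quality per array was not analysed here.

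**Figure D4:**
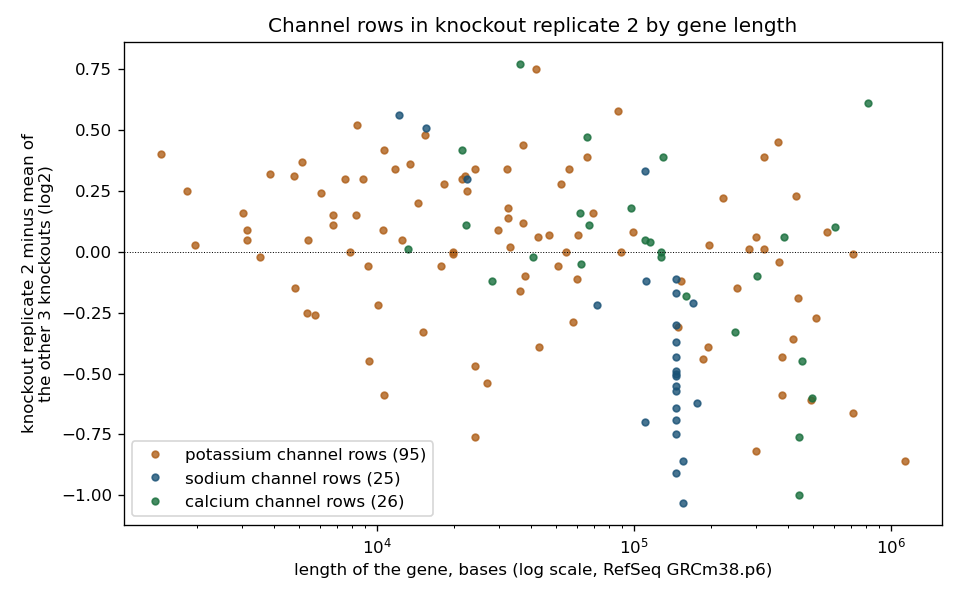
Knockout 2 minus the mean of the other 3 knockouts (log2, vertical axis) against the length of the gene in bases (log scale, RefSeq GRCm38.p6) for the 146 channel rows, coloured by ion. The column of sodium channel points at 1 length is the 14 rows of Scn2a. Rows of long genes lie lower (Spearman's rho -0.42).

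Control 2, an Emx2(fl/fl) mouse, also stood out for the channels. It was the highest of 8 arrays for 42 of the 146 channel rows (28.8%, beside 10.3% of all rows). Knockout 2 was the lowest for 43, a share near that of all rows (29.5%, beside 26.2%). It was the highest for 25, a smaller share than in all rows (17.1%, beside 32.6%). Control 1 was the lowest for 28 (19.2%, beside 9.72%). Of the 20 measured channels listed as brain-enriched, 10 were highest in control 2, such as Cacng3 and Kcnd3. Some neuronal lists moved with this and others did so less. Of the mature OSN markers 3 of 15 were lowest and 3 highest in knockout 2, and 1 was highest in control 2. Of the vomeronasal neuron markers 1 of 6 was lowest and 3 highest in knockout 2, and 1 was highest in control 2. Of the immature OSN markers 5 of 12 were highest in control 2 and 6 of 12 lowest in knockout 2, and 11 of 21 channels of olfactory and other sensory neurons were lowest in knockout 2. Of the markers of olfactory bulb and brain 5 of 10 were highest in control 2 and 6 of 10 lowest in knockout 2, and their mean was 8.56, 8.31, 8.66 and 8.58 in knockouts, against 8.50, 8.93, 8.81 and 8.61 in controls. Of the brain markers 1 of 10 was in the dimmest 30% of rows, and of the immature OSN markers none. The part of these cells in the channel values was not tested.

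The 2 control genotypes could be compared with 2 arrays each, with the spread taken from all 8. By limma, 0 of 23410 rows (0%) were called at an adjusted p under 0.05, while an unadjusted p under 0.05 was reached by 478 (2.04%). Of the channel rows 6 reached it, all lower in 123Cre:Emx2(fl/+) than in Emx2(fl/fl) controls (4.11%, beside 1.41% of all rows lower and 0.632% higher). They were Kcnc1 at -0.40, Kcnd3 at -0.50, Kcna5 at -0.35, Cacng3 at -0.73, Kcnip1 at -0.77 and the dimmer row of Cacng2 at -0.46, each with an adjusted p of 0.997. For Kcnip1 the values were 6.97 and 7.05 in 123Cre:Emx2(fl/+) controls, against 8.11 and 7.45 in Emx2(fl/fl) controls. Kcnd3 measured 7.36 and 7.20 in 123Cre:Emx2(fl/+) controls, against 7.93 and 7.63 in Emx2(fl/fl) controls. These genotypes differ both in Cre and in whether an Emx2 allele can be deleted, and these cannot be told apart. In 5 of the 6 rows control 2 was the highest control. None of these 6 was among the 13 rows of the main comparison.

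Grouped by where the channels are known to act, no list had a called member. Of 21 measured channels of olfactory and other sensory neurons, 16 were below 0 with a median of -0.11, and 1, Kcnmb3, had a p under 0.05. The mean of these channels was 8.84 to 9.01 in knockouts, against 8.96 to 9.11 in controls. Without knockout 2, 15 of the 21 were below 0 with a median of -0.05, and with arrays centred on mature OSN markers 8 of 21 with a median of 0.03. Markers of these neurons lay lower as well: 12 of 15 mature OSN markers were below 0 with a median of -0.12, and 11 of 12 immature OSN markers with -0.11, their mean being 11.40 to 11.48 in knockouts, against 11.49 to 11.64 in controls. The part of OSN number in the channel values was not tested. Of 7 channels of vomeronasal neurons, 5 were below 0 with a median of -0.05. Kcnn3, 1 of the 7, was lower at an unadjusted p under 0.05 (beside 3.06% of all rows). Without knockout 2, 3 of the 7 were below 0 with a median of 0.04. Of 20 brain-enriched channels, 10 were below 0 and 10 above, and 7 were in the dimmest 30% of rows. Cacna1a and Cacna1e, 2 of the 20, were higher at an unadjusted p under 0.05 (beside 3.04% of all rows). Among 9 channels of striated muscle the median was 0.08, among 7 of smooth muscle and vessels -0.11, among 15 of epithelia and glia 0.03 and among 5 of immune cells 0.03. Kcnj12 in the striated muscle list and Kcnmb1 in the smooth muscle list were higher at that p. The epithelial and immune lists had no channel with a p under 0.05. Across all channel rows 44.5% of differences were above 0, beside 51.6% of all rows. Centring on mature OSN markers raised every difference by 0.14 to 0.15, which took the channels with a p under 0.05 to 1 lower and 31 higher (21.2%, beside 21.3% of all rows).

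Among partners of these channels none was called either. The partner lists share genes with the 15 mature OSN markers, among them Ano2, Rtp2, Cngb1 and Cnga4. These counts are therefore not separate from those of the markers or from the centring on them. Of 17 related channels gated by voltage or cyclic nucleotides, 2 were lower and 1 higher at an unadjusted p under 0.05 (17.6%, beside 6.1% of all rows). Cngb1, a subunit of the olfactory cyclic nucleotide-gated channel, measured 9.69, 9.79, 9.51 and 9.75 in knockouts, against 9.95, 9.97, 9.98 and 9.85 in controls (-0.25, adjusted p = 0.618), without overlap. Its partner subunit Cnga4 was at 0.27 (adjusted p = 0.771), and Hcn2, a hyperpolarisation-activated pacemaker channel, at -0.28 (adjusted p = 0.689). Among 12 proteins of the transduction current 2 were lower at that p (16.7%), Ano2 and Rtp2, a protein that helps carry odorant receptors to the membrane (-0.40, adjusted p = 0.128). Ano2, the calcium-activated chloride channel, measured 10.65, 10.76, 10.58 and 10.71 in knockouts, against 11.01, 11.02, 11.07 and 10.98 in controls (-0.35, SE 0.066, adjusted p = 0.116, and -0.38 with 0.0147 under array weights). Of 26 accessory and anchoring proteins 2 were lower (7.69%), the Kcna anchor Cntnap2 and Nrcam, a cell adhesion molecule of the axon initial segment, at -0.30. Of 8 Trp channels the irritant receptor Trpa1 was higher, with 6.76 to 7.26 in knockouts, against 6.24 to 6.52 in controls (0.64, SE 0.11, adjusted p = 0.0866), and it was called without knockout 2 (0.74) and with array weights (0.73). None of 8 Na+/K+-ATPase subunits, the pumps that restore the gradients, had a p under 0.05.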

How the data were processed

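Total RNA from each olfactory mucosa was hybridised to 1 GeneChip Mouse Gene ST array. The authors deposited 1 log2 value per transcript cluster and array, which was used unchanged. Affymetrix Expression Console is named in the submitters' processing notes. How background was corrected and arrays were normalized is not given in the sources consulted. Array medians lay between 8.00 and 8.13, and the number of arrays limits the precision. Groups were taken from the labels, and replicate numbers only name samples. Gene symbols came from the platform annotation; 3 further rows with several symbols, a channel among them, were not used.

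Knockouts and controls were compared with limma (version 3.58.1, R 4.3.3; lmFit and eBayes, two-sided) on all 23410 rows with a gene symbol, with Benjamini-Hochberg adjustment over all of them, after a test on simulated data with 200 changed rows. The t-tests of the methods were run as an alternative. The methods' scaling to the average difference of a long list of mature OSN mRNAs was not run. As an alternative, each array was centred on 15 mature OSN markers, which is not the authors' scaling and need not give its result. The study reports that conditional Emx2 deletion left mature and immature OSN numbers unchanged. Further alternatives were quantile normalization, centring on the array median, a filter on the dimmest 30% of rows, all rows, a variance trend, array weights, each control genotype alone, a term for samples numbered 1 to 4 and 5 to 8, 1 row per gene, and leaving out each array.

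The members and all gene lists were chosen with earlier results of these data known. Named channels were the 15 lower and 10 higher rows with the lowest p, the members of each family with the lowest p and the largest difference, members of the lists, and up to 3 partners per list. Kcnmb2, Kcnip3, Kcnn1 and Kcnc4, the finer families, the gene lengths, the array extremes and the CG pairs were chosen after their values were seen. Promoters are from RefSeq (GRCm38.p6); proteins were not analysed here.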

Additional observations from a re-analysis of the deposited data

Results flagged for a closer look

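Within groups of 4 arrays, 9 of the 112 groups examined for the named genes held an array far from the other 3 by Dixon's criterion, and chance flags about 1 in 20 groups. Knockout 2 accounted for 4 of them. It was the lowest knockout for Cacna1e, at 8.96 with the others between 9.51 and 9.59, and for Kcna1, at 8.15 with the others between 8.60 and 8.61. It was the highest knockout for Kcnab2, at 10.36 with the others between 9.74 and 9.82, and for Kcnmb4, at 9.51 with the others between 9.14 and 9.20. Knockout 1 was the highest for Kcnj12, at 6.64. Control 2 was the highest control for Kcnh1, at 8.81 with the others between 8.62 and 8.64, and for Scn3b, at 11.90 with the others between 11.65 and 11.69. Control 4 was the highest control for Kcnv2, at 6.72, and for Kcnmb4os1, at 7.13.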

How the results depend on the processing

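With 4 arrays a group and 146 rows among 23410, small differences in dim channels cannot be resolved. For 67 named rows, 1326 values under alternatives were computed: 1270 kept direction and side of the threshold, 8 passed the threshold with the same direction, 48 changed sign, and none lost a call. Of these rows only Emx2 was called in the main comparison, so no other row had a call to lose. The count that kept its side is therefore mostly of rows that were called in neither. The cause of these changes was not tested. No paired analysis was possible because the labels number the 8 samples consecutively and the groups share no number.

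The 84 rows called in all became 28 with the methods' t-test, 40 without the dimmest 30% of rows, 224 with array weights, 32 against 123Cre:Emx2(fl/+) controls, 25 against Emx2(fl/fl) controls, and 46 to 132 when 1 array was left out. Channel calls were 3 with array weights, and 0 to 2 when 1 array was left out, the 2 without knockout 2. Channels lower at an unadjusted p under 0.05 numbered 1 with mature OSN centring (0.685%, beside 0.995% of all rows) and 16 with array weights (11%, beside 7.1%). They numbered 10 with the sample-number term (6.85%, beside 4.52%) and 8 against Emx2(fl/fl) controls (5.48%, beside 2.47%). When 1 array was left out they numbered 4 to 13, with 13 without knockout 2 (8.9%, beside 4.85%). Those higher numbered 31 with mature OSN centring (21.2%, beside 21.3%), where the median channel difference was 0.116. With array weights 15 were higher (10.3%, beside 7.56%).

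Mature OSN centring moved the median difference of all rows to 0.146. Under it signs changed for Lhx2 (0.14), Omp (0.08), Kcnd2 (0.02), Kcnb2 (0.07), Kcnd3 (0.04) and the brighter Kcnma1 row (0.06). Under that centring signs also changed for Cacng2 (0.08 and 0.11), Cacng3 (0.07) and Cacna1b (0.14). Against 123Cre:Emx2(fl/+) controls they changed for Lhx2 (0.03), Kcnip1 (0.09), Cacng7 (0.02), Kcnd3 (0.15), Cacng2 (0.17 and 0.01), Cacng3 (0.29), Cacna1b (0.07) and Scn9a (-0.09 and -0.13). Against Emx2(fl/fl) controls Kcnip4 and the brighter Kcnma1 row were at 0.01, with array weights Kcnip4 was at 0.03, that Kcnma1 row at 0.07 and Cacna1b at 0.05, and with quantile normalization Lhx2 was at 0.00 and Cacna1b at 0.02. Leaving out 1 array gave ranges across 0 for Lhx2 (-0.03 to 0.03), Kcnd3 (-0.21 to 0.03), the brighter Kcnma1 row (-0.17 to 0.08), Cacng2 (-0.15 to 0.11 and -0.08 to 0.01), Cacng3 (-0.25 to 0.16), Cacna1b (-0.04 to 0.04) and Scn9a (-0.10 to 0.23 and -0.13 to 0.26).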
